A study of Arabidopsis thaliana with 20 samples.

Results

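The plastid-encoded genes described here are the genes of the chloroplast's own genome, measured in roots and shoots of Arabidopsis thaliana Col-0 plants that were submerged, kept in the dark or harvested in the light. They were chosen by gene name and not by a cutoff on their values, but with earlier results of these data known. A probe set was a member if it named 1 plastid gene whose symbol begins with psa, psb, pet, ndh, rpo or ycf, or is rbcL, matK, accD, clpP, cemA or ccsA. That rule gave 48 probe sets for 48 genes out of 22746 probe sets tested. The members comprise 5 psa, 15 psb, 6 pet, 10 ndh, 4 rpo and 2 ycf genes and the 6 genes named singly. RefSeq lists 78 protein-coding symbols on the Arabidopsis plastid genome (assembly TAIR10.1). Probe sets for ndhB, ycf1 and ycf2 named several genes and were left out. A further 21 probe sets named 1 plastid gene each outside the rule, for ATP synthase and ribosomal proteins, and are used only for comparison.

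Chloroplasts keep a small genome from their cyanobacterial ancestor. It codes for core subunits of photosystem II (psb genes), photosystem I (psa), the cytochrome b6f complex between them (pet) and the NDH complex of cyclic electron flow (ndh), and for the large subunit of Rubisco (rbcL). Plastid genes are transcribed in long clusters by a plastid-encoded RNA polymerase, whose core subunits are the rpo genes, and by nuclear-encoded phage-type polymerases, and the clusters are then cut, spliced and edited. Root plastids are mostly non-green and do not photosynthesise.

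Plants were grown in soil in a 9 h photoperiod at 20 °C to a rosette of 9 to 10 leaves, and whole roots and whole shoots were analysed separately. The submerged groups were put fully under water, in complete darkness, 2 h into the light period and held for 7 h or 24 h. Dark groups stood unsubmerged for the same times in the same chamber, and the light groups were unsubmerged plants from the growth chamber at 0 h. Each of the 10 groups (5 conditions in each tissue) holds 2 arrays from independent replicate experiments, 20 Affymetrix arrays in all, and every plant was wild type. The 0 h and 24 h harvests fall at one time of day and the 7 h harvest at a later one, so that time of day and time in the dark cannot be told apart between them.

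Values are log2 RMA expression values of the probe sets, as deposited. Array medians lay between 6.14 and 6.41. A change is the difference of 2 group means on this scale, given with its standard error (SE) from a limma fit over all 20 arrays, and a gene is called, or said to have risen or fallen, when its Benjamini-Hochberg adjusted p over all probe sets lay under 0.05. Array values are given replicate 1 first. The labelling kit copies RNA from poly(A) tails, which most plastid transcripts lack or carry only briefly, and the part this plays in the values was not tested. In these whole organs, fewer green cells, fewer plastids and less RNA per plastid cannot be told apart.

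The tissue labels went with their markers. In the light, RCA, the Rubisco activase gene of green tissue, had 5.42 and 6.77 in roots and 14.21 on both arrays in shoots, and the root hair expansin EXPA7 averaged 9.77 in roots and 4.43 in shoots. PYK10, a root beta-glucosidase, averaged 12.98 in roots and 9.36 in shoots. The stomatal regulator listed as FMA, the other shoot marker measured, was lower in roots by 1.96. A control probe set for 25S ribosomal RNA read 10.0 and 10.16 on the light root arrays and 12.7 to 13.82 on the other root arrays. In shoots it read 11.22 and 11.68 on the light arrays and 12.99 to 13.6 on the others. The 3′ minus 5′ signal of the Arabidopsis actin controls was 4.32 and 4.25 on the light root arrays and 3.34 to 3.79 on the other root arrays. That of the Arabidopsis GAPDH controls was -0.03 and 0.28 on the light root arrays and 0.48 to 0.88 on the other root arrays. In shoots the actin signal was 3.30 and 3.32 on the light arrays and 3.35 to 3.48 on the dark ones. The ribosomal RNA control thus moved with each comparison of darkness against light below. It also moved with submergence at 24 h. In roots it then read 13.56 and 13.82 under water, against 12.7 and 13.21 in the dark. In shoots it then read 12.99 and 13.13 under water, against 13.54 and 13.6 in the dark. The 3′ minus 5′ signals moved with the comparisons of darkness against light in roots. At 7 h the actin signal also moved with submergence. In roots it then read 3.79 and 3.5 under water, against 3.34 and 3.4 in the dark. In shoots it then read 3.23 and 3.08 under water, against 3.35 and 3.41 in the dark. In dark roots at 24 h the actin signal was 3.69 and 3.72, above both arrays of 7 h. The ribosomal RNA control was 12.7 and 13.21 there, against 13.24 and 13.51 in dark roots at 7 h. The part of these controls in the results was not tested.

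**Figure D1:**
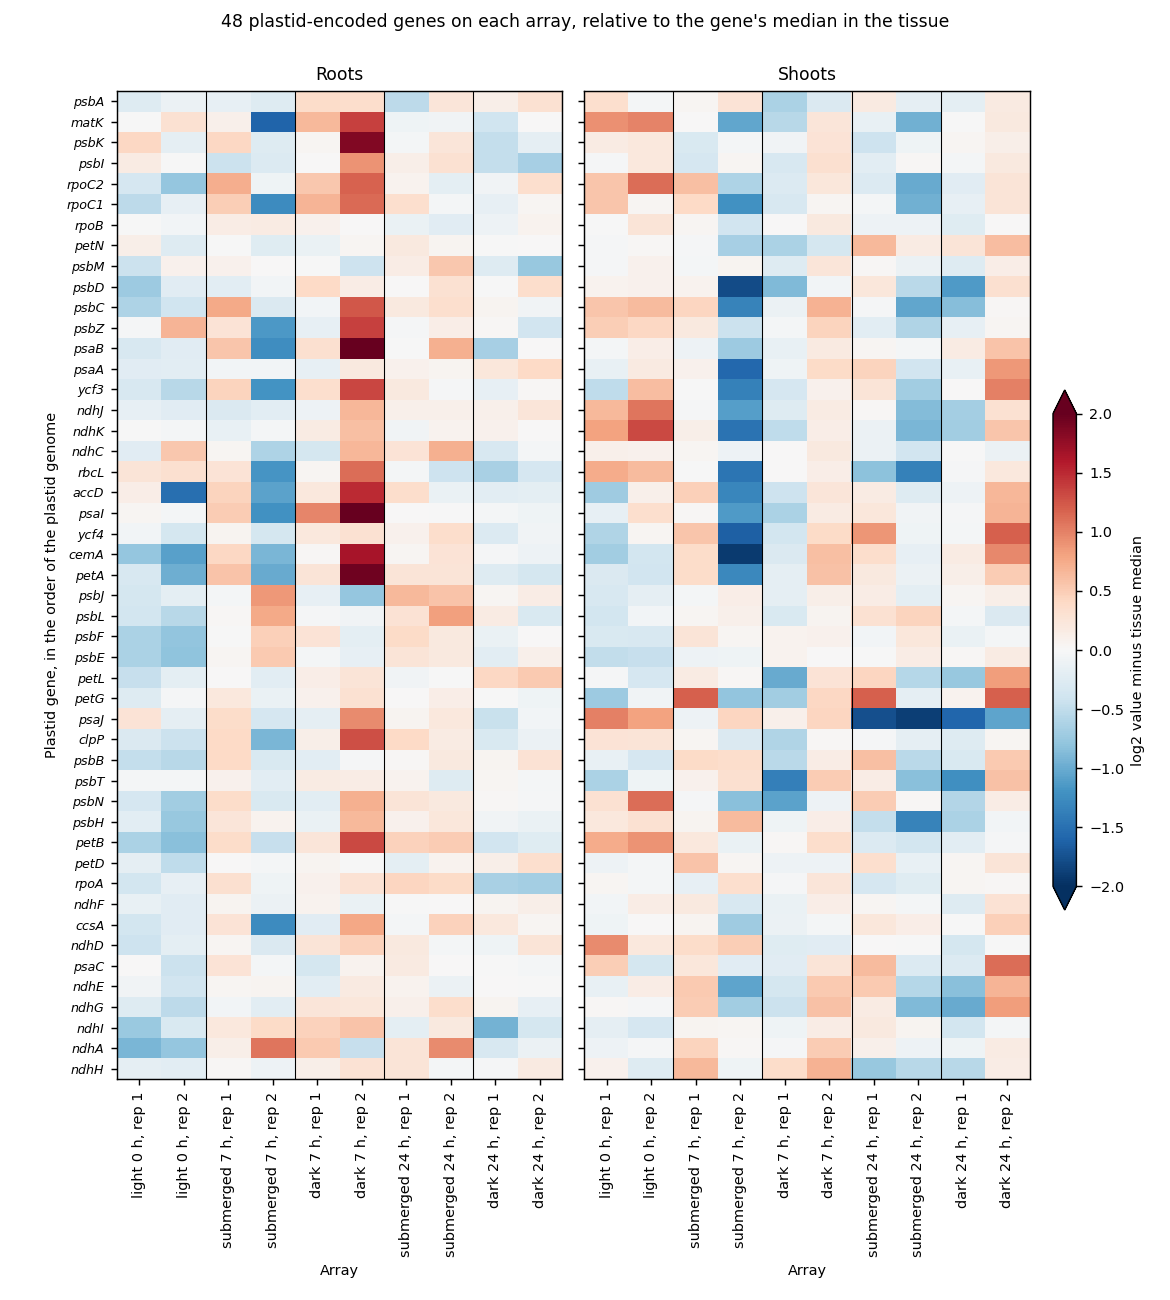
Each row is 1 of the 48 plastid-encoded genes in the order of the plastid genome, and each column is 1 array (roots left, shoots right). Colour gives the log2 value minus the gene's median over the 10 arrays of that tissue, with colours saturating at 2 on either side. Whole arrays stand out as columns, above all root dark 7 h replicate 2 (highest root array for 27 genes) and shoot submerged 7 h replicate 2 (lowest shoot array for 21 genes), and psaJ stands out as a row in shoots at 24 h.

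The strongest pattern among the plastid genes was the one between organs. In the light all 48 genes were lower in roots than in shoots, and each was called (100% of the members, against 59.1% of all probe sets called in either direction 24.3% lower and 34.9% higher in roots). Array medians were 0.17 higher in light roots than in light shoots. The median difference was -3.91 and the range ran from -7.33 for ndhJ to -0.41 for rpoB. Many root values lay near the low end of the scale, and for those genes the differences are better read as lower bounds. The order of the genes by difference is limited in the same way. ndhJ, a subunit of the NDH complex, had 4.02 and 3.95 in light roots, against 11.11 and 11.52 in light shoots (root minus shoot -7.33, SE 0.35, adjusted p = 2.1e-12). Its neighbour ndhK differed by -6.66 (SE 0.42, adjusted p = 9.8e-11). psbC, which codes for the inner antenna protein CP43 of photosystem II, differed by -6.61 (SE 0.51, adjusted p = 1.8e-09), with 4.77 and 4.99 in light roots against 11.45 and 11.52 in light shoots.

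The gap was present in every subgroup. Its median was -5.18 over the 5 psa genes, -3.90 over the 10 ndh genes, -3.79 over the 15 psb genes, -3.58 over the 4 rpo genes and -2.70 over the 6 pet genes. Over all 10 groups, the 10 root arrays lay wholly below the 10 shoot arrays for 44 of the 48 genes, against 9.64% of all probe sets. The 4 exceptions were accD, rpoB, petD and ndhF. accD codes for the plastid-encoded subunit of acetyl-CoA carboxylase, which starts fatty acid synthesis in green and non-green plastids alike. It ranged from 4.87 to 7.87 over root arrays and from 7.17 to 9.14 over shoot arrays. rpoB, petD and ndhF were dim in both organs, with highest values of 3.90, 4.62 and 3.56 in roots and 4.25, 5.31 and 4.01 in shoots. In roots 21 of the 48 genes never passed a log2 value of 6, which is below every array's median, and 16 passed it on all 10 arrays. In shoots 39 passed it on all 10 arrays and 3 never did.

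**Figure D2:**
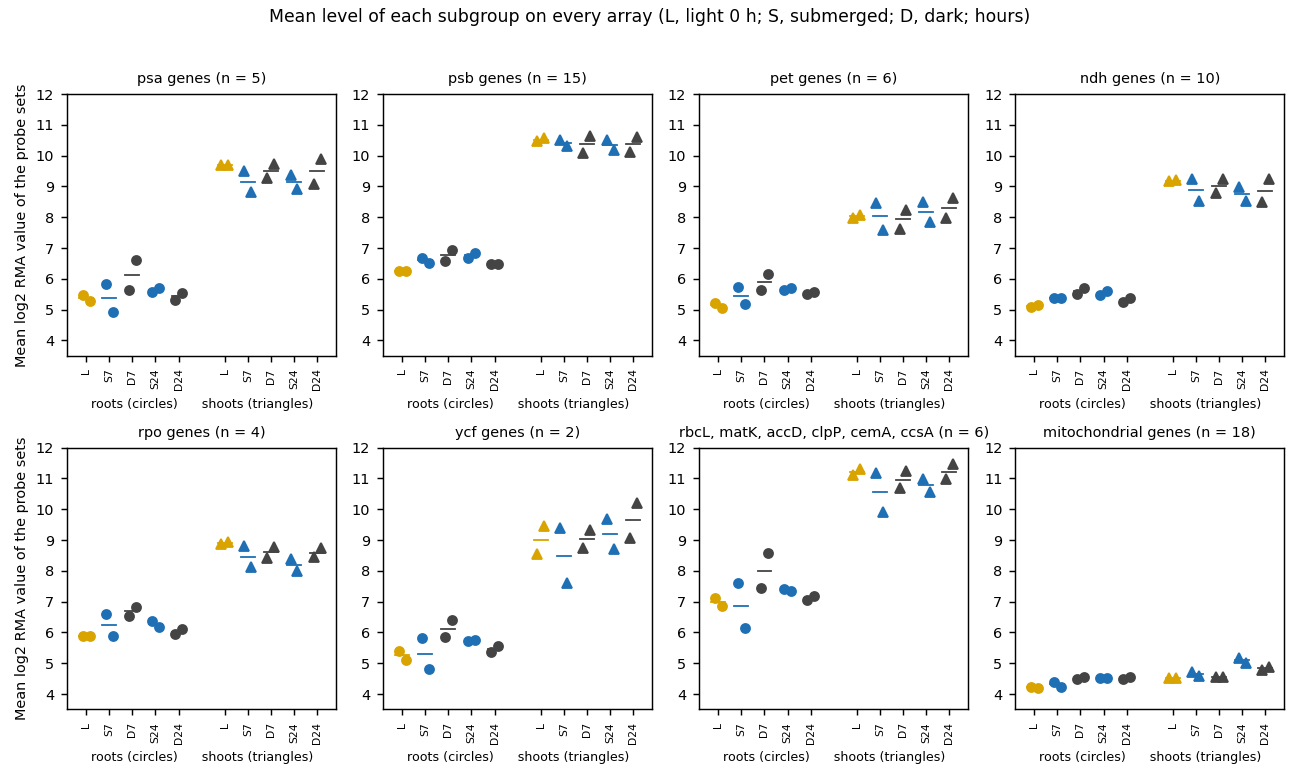
Mean log2 RMA value of the probe sets of each subgroup on every array, with roots as circles on the left and shoots as triangles on the right of each panel. Short lines are means of the 2 arrays; yellow is light, blue submerged and dark grey dark. For the psa genes root arrays sit between 4.93 and 6.60 and shoot arrays between 8.82 and 9.89, while the 18 mitochondrial genes in the last panel sit between 4.21 and 5.18 in both organs.

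Before any comparison of treatments, the 2 arrays of a group have to be set beside each other, because plastid genes differed between replicates more than other probe sets did. The residual SD between replicates had a median of 0.47 over the 48 genes, against 0.15 over all probe sets. Its median was 0.52 over the 21 other plastid genes and 0.15 over 18 mitochondrial genes. The mitochondrial genes were dim, with array means of 4.21 to 5.18, so that they are a weak comparison. The difference ran one way across most genes of an array. On shoot dark 7 h arrays 47 of 48 genes were higher in replicate 2 than in replicate 1 (median difference 0.45), and on shoot dark 24 h arrays 45 of 48 were. In submerged shoots the difference ran the other way, with 36 of 48 genes lower in replicate 2 at 7 h and 41 of 48 lower at 24 h. Over all probe sets the median difference between the same replicates was within 0.03 of 0.

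**Figure D3:**
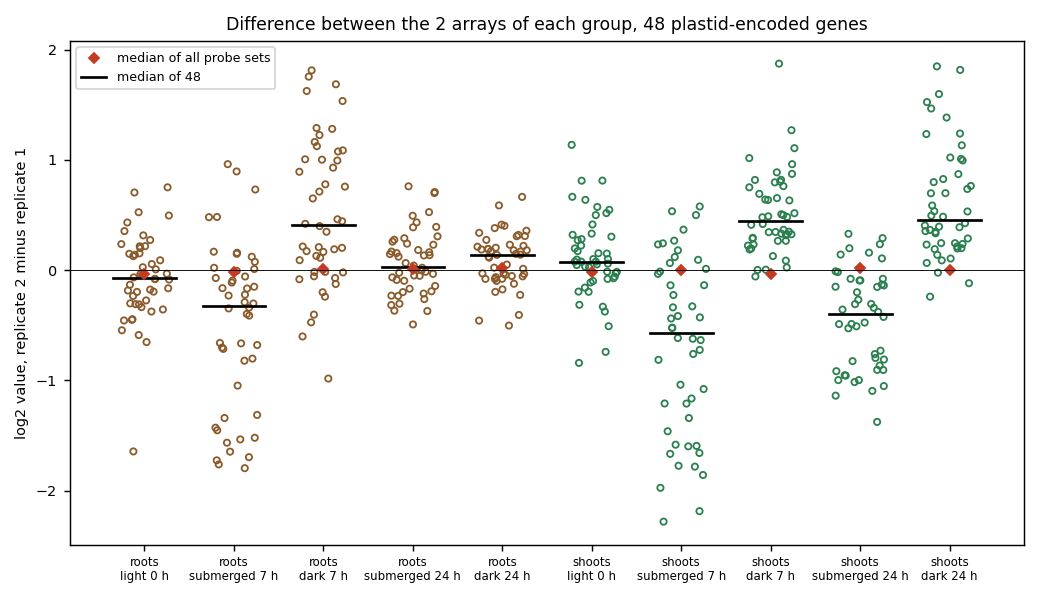
Each open point is 1 of the 48 plastid-encoded genes, placed at its log2 value in replicate 2 minus that in replicate 1 of the group named on the horizontal axis (brown for roots, green for shoots). Black bars are medians of the 48 genes and red diamonds are medians of all 22746 probe sets. The black bars leave 0 in dark and submerged shoots and in roots at 7 h, while the diamonds stay close to 0.

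The replicate difference did not touch every gene cluster alike. In submerged roots at 7 h the stretch accD, psaI, ycf4, cemA and petA averaged 6.62 in replicate 1 and 5.31 in replicate 2, and all 5 genes were lower in replicate 2. The next stretch on the plastid genome, psbJ, psbL, psbF and psbE, averaged 8.36 in replicate 1 and 9.00 in replicate 2, and all 4 genes were higher in replicate 2. In dark roots at 7 h both signs were turned. There the accD to petA stretch averaged 6.56 in replicate 1 and 7.74 in replicate 2, and the psbJ to psbE stretch 8.36 and 8.05. In submerged shoots at 7 h the accD to petA stretch averaged 10.44 and 8.62, while the psbJ to psbE stretch stood at 11.46 on both arrays. These stretches are given as descriptions, picked out by gene order after the values were seen. The larger spread sets what can be called: the median SE of a comparison was 0.37 for the plastid genes and 0.15 for all probe sets.

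Submergence was compared with darkness of the same length, which asks what being under water adds to being in the dark. In shoots almost no plastid gene passed the test. At 7 h 1 of 48 genes was called (2.08%, against 13.7% of all probe sets, of which 6.52% were higher and 7.14% lower), and at 24 h none was called by limma (0%, against 11.9%, of which 5.9% were higher and 6.02% lower), with 2 genes at an unadjusted p under 0.05 there. The median change over the 48 genes was -0.14 at 7 h and -0.18 at 24 h. With an SE of this size, moderate changes of single plastid genes were not detectable.

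The called gene in shoots at 7 h was ndhD, which codes for a membrane subunit of the NDH complex. Its values were 8.64 and 8.76 in submerged shoots, against 8.04 and 8.04 in dark shoots. The groups did not overlap, and the change was 0.66 (SE 0.20, adjusted p = 0.034), but it lost its call whenever any 1 of the 4 arrays was left out (adjusted p up to 0.19). No plastid gene was called at 7 h without either dark array, and 4 were called, all lower, without submerged replicate 1. psbA, which codes for the D1 reaction centre protein of photosystem II, had 9.86 and 10.10 in submerged shoots, against 9.20 and 9.54 in dark shoots, and its difference of 0.61 did not pass (SE 0.21, adjusted p = 0.066).

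rbcL gave the lowest change of submerged shoots at 24 h. It had 10.21 and 9.68 in submerged shoots, against 11.01 and 11.25 in dark shoots. Both submerged arrays lay below both dark ones, yet the difference of -1.18 did not pass (SE 0.43, adjusted p = 0.091). At 7 h its submerged arrays lay far apart, at 11.03 and 9.57, against 11.03 and 11.16 in the dark. psaA, a reaction centre protein of photosystem I, had 7.67 and 6.0 in submerged shoots at 7 h, against 7.48 and 7.96 in dark shoots (difference -0.89, SE 0.39, adjusted p = 0.17).

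**Figure D4:**
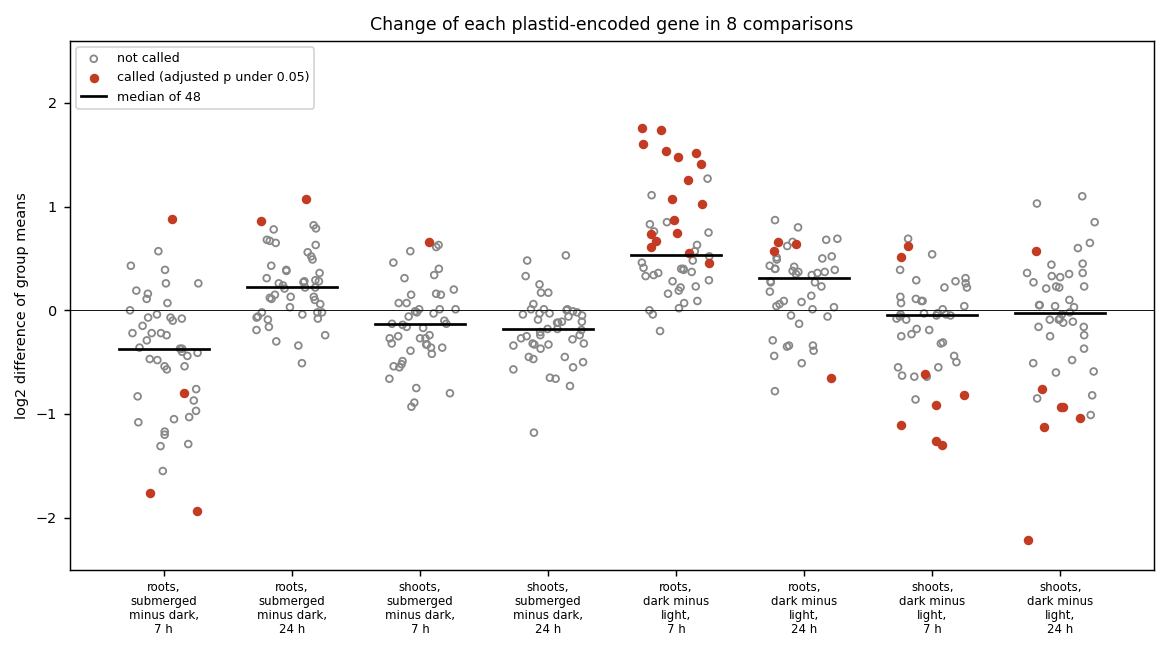
Log2 change of each of the 48 plastid-encoded genes in 8 comparisons: submerged minus dark in 4 groups, then dark minus light in 4 groups. Red points are called genes, open points are genes not called, and black bars are medians. The called genes are few under submergence, lie above 0 in dark roots at 7 h and mostly below 0 in dark shoots, where psaJ at 24 h is the lowest point at -2.22.

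In roots at 7 h, 3 plastid genes fell under submergence and 1 rose, 4 of 48 in all (8.33%, against 8.69% of all probe sets, with 4.42% higher and 4.27% lower). Both submerged arrays lay below both dark ones for 15 genes and above them for 5, against 30.4% and 19.9% of all probe sets. The median change was -0.37, and 38 of the 48 genes had a negative change. psaI, a small subunit of photosystem I, had 6.60 and 4.87 in submerged roots, against 7.07 and 8.29 in dark roots. matK, the maturase that helps to splice plastid introns, had 7.88 and 6.19 in submerged roots, against 8.43 and 9.15 in dark roots. Neither gene's groups overlapped, and in both the replicate 2 arrays lay much farther apart than the replicate 1 arrays. The changes were -1.94 for psaI (SE 0.47, adjusted p = 0.016) and -1.76 for matK (SE 0.43, adjusted p = 0.017). psbI, a small photosystem II subunit, changed by -0.80 (SE 0.24, adjusted p = 0.045). psbJ, another such subunit, had 8.55 and 9.45 in submerged roots, against 8.41 and 7.81 in dark roots, a rise of 0.88 (SE 0.23, adjusted p = 0.022).

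These 4 calls rested on the replicate 2 arrays. Without submerged replicate 2, or without dark replicate 2, no plastid gene was called in roots at 7 h, and none was called with both left out, an alternative added after the data were seen. Without submerged replicate 1, or without dark replicate 1, more plastid genes were called than with all arrays. Each of these fits called fewer of all probe sets than the fit of all arrays. Other named genes with large differences did not pass: psaB, a reaction centre protein of photosystem I, changed by -1.55 (SE 0.49, adjusted p = 0.060) and petA, which codes for cytochrome f, by -1.31 (SE 0.53, adjusted p = 0.15).

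In roots at 24 h, 2 plastid genes rose under submergence and none fell (4.17%, against 3.22% of all probe sets called in either direction 1.39% higher and 1.83% lower). rpoA codes for the alpha subunit of the plastid-encoded RNA polymerase. It had 10.24 and 10.19 in submerged roots, against 9.16 and 9.13 in dark roots. The arrays of a group lay almost on top of each other and the groups were about 1 log2 unit apart (change 1.07, SE 0.16, adjusted p = 0.00083). This call held in each alternative tried, with an adjusted p of at most 0.013. Over the whole root series, rpoA read 9.44 and 9.64 in the light, 10.13 and 9.72 in submerged and 9.89 and 10.10 in dark roots at 7 h. Dark roots were lower at 24 h than at 7 h (change -0.85, SE 0.16, adjusted p = 0.0010). Their difference of -0.39 from light roots did not pass (adjusted p = 0.054), and submerged roots at 24 h lay above both light arrays.

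The other polymerase genes did not share the rise of rpoA. rpoB, rpoC1 and rpoC2, which code for the beta, beta-prime and beta-double-prime subunits, changed by -0.16, 0.21 and -0.19 in submerged roots at 24 h, and none passed. psbM, a small photosystem II subunit, had 11.16 and 11.55 in submerged roots at 24 h, against 10.75 and 10.24 in dark roots (change 0.86, SE 0.22, adjusted p = 0.036). It lost its call without the submerged replicate 2 array (adjusted p = 0.35) and without the dark replicate 2 array (adjusted p = 0.32). Among the psb genes both submerged arrays lay above both dark ones for 10 of 15 at this time, and among all 48 genes for 26, against 21.5% of all probe sets.

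Darkness was compared with light within each organ, which asks how plastid transcripts of unsubmerged plants stood after 7 h and 24 h without light. The 2 dark groups of an organ share its light arrays. In roots at 7 h, 17 of 48 plastid genes rose and none fell (35.4%, against 46.9% of all probe sets called in either direction 24.8% higher and 22.1% lower). The median change was 0.54, compared with 0.08 over all probe sets. Both dark arrays lay above both light arrays for 36 of the 48 genes, against 41.1% of all probe sets. The risers comprised 4 psb, 3 ndh, 3 rpo, 2 psa and 2 pet genes, with accD, clpP and cemA.

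The largest rises in dark roots came from genes of the accD to petA stretch, though not from all of it. Its gene ycf4 changed by 0.46 and did not pass (SE 0.51, adjusted p = 0.5). cemA, which codes for an envelope membrane protein, had 5.91 and 7.53 in dark roots, against 5.11 and 4.80 in light roots (change 1.76, SE 0.59, adjusted p = 0.020). petA had 7.91 and 9.60 in dark roots, against 7.34 and 6.69 in light roots (change 1.74, SE 0.53, adjusted p = 0.012). psaI had 7.07 and 8.29 in dark roots, against 6.12 and 6.04 in light roots (change 1.60, SE 0.47, adjusted p = 0.0096). For each of these genes the dark replicate 2 array was the highest of all root arrays. accD rose by 1.54 (SE 0.60, adjusted p = 0.043), and its light arrays themselves were far apart at 6.51 and 4.87. All 4 calls were lost without dark replicate 2, where the changes were 0.95 for cemA, 0.90 for petA, 0.98 for psaI and 0.90 for accD. Without light replicate 2 the calls of cemA, petA and accD were lost too, and accD changed by 0.72.

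Among genes outside that stretch, petB, which codes for cytochrome b6, had 8.39 and 9.48 in dark roots at 7 h, against 7.52 and 7.33 in light roots. Its rise of 1.52 (SE 0.27, adjusted p = 0.00015) held in each alternative, with an adjusted p of at most 0.0044. Of the polymerase genes, rpoC2 rose by 1.41 (SE 0.37, adjusted p = 0.0040), rpoC1 by 1.26 (SE 0.48, adjusted p = 0.040) and rpoA by 0.46 (SE 0.16, adjusted p = 0.027), while rpoB changed by 0.09 and did not pass. clpP, the proteolytic subunit of the plastid Clp protease, rose by 1.07 (SE 0.35, adjusted p = 0.017). psaB rose by 1.48 (SE 0.49, adjusted p = 0.019). psbA had 5.08 and 5.06 in dark roots, against 4.44 and 4.59 in light roots, low values throughout, and rose by 0.55 (SE 0.21, adjusted p = 0.040). The calls of psbA and rpoC1 were lost whenever any 1 of the 4 arrays was left out (adjusted p up to 0.17 and 0.20). Those of clpP, psaB, rpoC2 and rpoA were lost without dark replicate 2, with changes of 0.49, 0.61, 1.09 and 0.36. rbcL, psbC, psbD, psaA, psaC, ndhJ, ndhF, matK and petD did not pass.

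How many root genes were called at 7 h depended on single arrays, while each fit without 1 array called fewer of all probe sets. Without dark replicate 2 the count was 5, and without dark replicate 1 it was 20. Without light replicate 1 it was 11 and without light replicate 2 it was 8. Other measures moved with this comparison, besides the ribosomal RNA control. Measured were 9 nuclear photosynthesis genes, of photosystems, antennae, the Calvin cycle and the chloroplast ATP synthase. They averaged 7.04 and 7.45 in dark roots at 7 h, against 5.44 and 6.19 in light roots. Of the 9 genes 6 rose, against 24.8% of all probe sets called higher. PSAN, a nuclear-encoded subunit of photosystem I, rose by 3.44 (SE 0.25, adjusted p = 5.7e-09) and the antenna gene LHCB4.1 by 2.84 (SE 0.16, adjusted p = 2e-10). Of the shoot markers, RCA rose by 1.24 in dark roots (SE 0.31, adjusted p = 0.0029), while FMA changed by 0.06 and did not pass. The root markers EXPA7 and PYK10 averaged 9.18 and 9.52 in dark roots, against 11.45 and 11.31 in light roots. The part of these measures in the rise of the plastid genes was not tested.

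At 24 h fewer plastid genes of dark roots were called against light roots than at 7 h, though most changes were still positive. The mean level of the 48 genes was 5.96 and 6.06 in dark roots at 24 h. It was 6.21 and 6.72 in dark roots at 7 h and 5.84 and 5.77 in light roots. Of the 48 genes 3 rose and 1 fell (8.33%, against 52.8% of all probe sets, with 27.8% higher and 25% lower), with a median change of 0.31. The count was 2 without light replicate 2 or without dark replicate 2. Compared directly, dark roots at 24 h had 7 plastid genes lower than dark roots at 7 h and none higher (14.6%, against 22.8% of all probe sets, with 10.1% higher and 12.7% lower). psaI had 6.05 and 6.0 at 24 h, against 7.07 and 8.29 at 7 h (change -1.66, SE 0.47, adjusted p = 0.017). psaB changed by -1.54 (SE 0.49, adjusted p = 0.032), psbK by -1.28 (SE 0.38, adjusted p = 0.021) and ndhI by -1.16 (SE 0.19, adjusted p = 0.00029). The calls of psaI, psaB and psbK were lost without the 7 h dark replicate 2 array, with changes of -1.04, -0.66 and -0.37, and that of ndhI held in each alternative. That count was 2 without the 7 h dark replicate 2 array, 13 without the 7 h dark replicate 1 array and 3 without the 24 h dark replicate 1 array.

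The 3 genes that rose in roots at 24 h were psbE, psbF and petD, the last coding for subunit IV of the cytochrome b6f complex. psbE and psbF code for the alpha and beta subunits of cytochrome b559, part of the photosystem II core, and lie side by side. psbE had 8.50 and 8.81 in dark roots at 24 h, against 8.08 and 7.90 in light roots (change 0.66, SE 0.15, adjusted p = 0.00091). psbF had 9.04 and 9.19, against 8.56 and 8.39 (change 0.64, SE 0.17, adjusted p = 0.0039). At 7 h they had risen by 0.61 (SE 0.15, adjusted p = 0.0020) and 0.75 (SE 0.17, adjusted p = 0.0014). petD rose by 0.57 (SE 0.18, adjusted p = 0.013), from values that stayed under 5 on each root array, and psbI fell by 0.65 (SE 0.24, adjusted p = 0.028). The rises of psbE and psbF held in each alternative at both times, while petD lost its call without light or dark replicate 2 and psbI in 3 of 4 fits without 1 array. Light roots had the highest array medians, by 0.14 over dark roots at 24 h, and once each array was centred on its median 7 genes rose and none fell, with psbI at -0.51 (adjusted p = 0.069).

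In dark shoots few plastid genes passed the test. At 7 h 2 of 48 rose and 6 fell (16.7%, against 48.9% of all probe sets, with 24.9% higher and 24% lower). At 24 h 1 rose and 6 fell (14.6%, against 52.4%, with 27% higher and 25.4% lower). Both dark arrays lay below both light arrays for 15 of the 48 genes at each time, against 35.2% of all probe sets at 7 h and 34.7% at 24 h. The median change over the 48 genes was -0.05 at 7 h and -0.03 at 24 h. The mean level of all 48 genes was 9.31 and 9.82 in dark shoots at 7 h, 9.33 and 9.94 in dark shoots at 24 h, and 9.67 and 9.79 in light shoots, so that the replicates of dark shoots differed by more than the groups did. At 7 h, 2 rose and 1 fell without dark replicate 1, and 1 rose and 2 fell without light replicate 2. At 24 h, 5 rose and 1 fell without dark replicate 1, so that the balance of rises and falls turned on that array, and 1 rose and 3 fell without light replicate 2.

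psaJ, a small subunit of photosystem I, gave the largest fall. It had 8.34 and 8.87 in dark shoots at 24 h, against 10.93 and 10.73 in light shoots. The groups were far apart, with a change of -2.22 (SE 0.31, adjusted p = 5.3e-06), and the fall held in each alternative with an adjusted p of at most 0.00029. At 7 h it had 10.03 and 10.36 in dark shoots, and its difference from the light of -0.64 did not pass. It fell between the 2 dark times by 1.59 (SE 0.31, adjusted p = 0.0013). Submerged shoots had 9.83 and 10.36 at 7 h and 8.18 and 8.04 at 24 h, with both 24 h values below both dark arrays of that time, but the difference from dark shoots did not pass at either time.

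The next 2 genes after psaJ on the plastid genome, rpl33 and rps18, also fell, while the protein-coding genes on either side of these 3 did not pass. rpl33 and rps18 code for ribosomal proteins and are not members. rpl33 had 8.81 and 9.24 in dark shoots at 24 h, against 11.52 and 11.20 in light shoots (change -2.34, SE 0.20, adjusted p = 1.6e-08). rps18 had 7.88 and 8.04 in dark shoots at 24 h, against 10.32 and 10.20 in light shoots (change -2.30, SE 0.25, adjusted p = 2.5e-07). petL and petG, which code for small subunits of the cytochrome b6f complex, are the protein-coding genes before psaJ in the TAIR10.1 gene order. petL had 6.28 and 7.88 in dark shoots at 24 h, against 7.02 and 6.71 in light shoots, and petG had 5.46 and 6.59, against 4.66 and 5.33. Neither passed, with changes of 0.22 and 1.03. rpl20, the ribosomal protein gene after rps18, had 8.12 and 9.07 in dark shoots at 24 h, against 7.76 and 8.07 in light shoots, and its change of 0.68 did not pass. These neighbours were chosen after the fall of psaJ was seen.

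**Figure D5:**
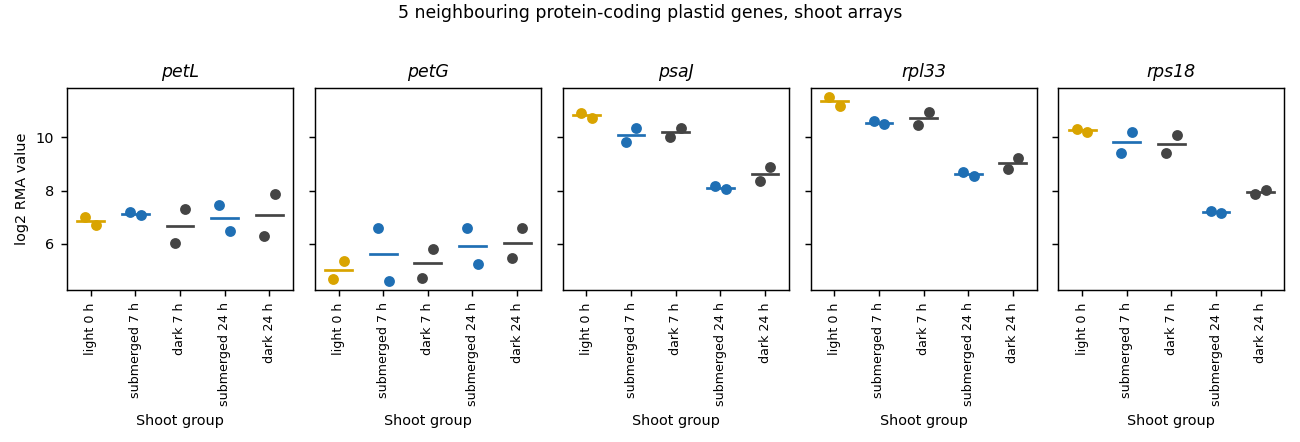
Log2 RMA values of 5 neighbouring protein-coding plastid genes on the 10 shoot arrays, in the order petL, petG, psaJ, rpl33, rps18. Points are arrays and short lines are means of 2 arrays (yellow light, blue submerged, dark grey dark). For psaJ, rpl33 and rps18 the 24 h groups lie below the light group, at 8.04 to 8.87 for psaJ against 10.93 and 10.73 in the light, while petL and petG show no such step.

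In roots psaJ had 4.55 and 4.93 in dark roots at 24 h, against 5.26 and 4.80 in light roots. The groups overlapped. Its response to 24 h of darkness differed between the organs by 1.93, root minus shoot (SE 0.43, adjusted p = 0.0015). psaJ stayed at or under 5.94 on each root array, where a fall like that in shoots could hardly show.

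Beside psaJ, the neighbours ndhJ and ndhK fell in dark shoots, while ndhC, the next gene, changed by 0.01 at 7 h and -0.16 at 24 h and did not pass. ndhK had 9.25 and 9.88 in dark shoots at 7 h and 9.07 and 10.31 at 24 h, against 10.56 and 11.08 in light shoots. The dark arrays of each time lay below both light arrays but far from each other, and the changes were -1.26 at 7 h (SE 0.42, adjusted p = 0.018) and -1.13 at 24 h (SE 0.42, adjusted p = 0.029). ndhJ fell by 0.91 at 7 h (SE 0.35, adjusted p = 0.041) and by 1.04 at 24 h (SE 0.35, adjusted p = 0.018). Without dark replicate 1 neither gene passed at either time, and at 24 h their changes were then -0.52 for ndhK (adjusted p = 0.41) and -0.54 for ndhJ (adjusted p = 0.29). Without light replicate 2 neither passed at either time. ndhD, from another cluster, had 8.04 and 8.04 in dark shoots at 7 h, 7.92 and 8.27 at 24 h, and 9.23 and 8.48 in the light. It fell by 0.82 at 7 h (SE 0.20, adjusted p = 0.0021) and by 0.76 at 24 h (SE 0.20, adjusted p = 0.0034). Without light replicate 1 these changes were -0.45 and -0.39 and did not pass. Of the 10 ndh genes 3 fell at each time, a share near that of all probe sets called lower (24% at 7 h and 25.4% at 24 h), and 1 rose at 7 h. That riser was ndhH, by 0.62 (SE 0.23, adjusted p = 0.030), which was lower again at 24 h than at 7 h by -0.74 (SE 0.23, adjusted p = 0.030). Both calls were lost without the 7 h dark replicate 2 array.

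Genes of photosystem II went both ways in dark shoots. psbN, needed for assembly of photosystem II, had 6.13 and 7.09 in dark shoots at 7 h, against 7.50 and 8.31 in light shoots (change -1.30, SE 0.37, adjusted p = 0.0073), and changed by -0.93 at 24 h (SE 0.37, adjusted p = 0.045). Leaving out 1 array moved these changes to between -1.78 and -0.82 at 7 h and between -1.34 and -0.53 at 24 h, and 2 of 4 such fits lost the call at each time. The call at 24 h was also lost in 4 of the 7 other alternatives. psbA had 9.20 and 9.54 in dark shoots at 7 h, against 10.16 and 9.79 in light shoots, a change of -0.61 (SE 0.21, adjusted p = 0.023) that did not pass without dark or light replicate 1. At 24 h psbA had 9.63 and 10.00 in dark shoots, which overlapped the light, and did not pass. psbE rose at both times, as it did in roots. It had 12.09 and 12.03 in dark shoots at 7 h and 12.05 and 12.19 at 24 h, against 11.53 and 11.56 in light shoots. The changes were 0.51 (SE 0.15, adjusted p = 0.0071) and 0.57 (SE 0.15, adjusted p = 0.0029). They held in each alternative, with adjusted p values of at most 0.045 at 7 h and 0.034 at 24 h.

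Of the remaining named genes, petB fell in dark shoots at 24 h, where it had 11.86 and 12.05 against 12.81 and 12.96 in light shoots (change -0.93, SE 0.27, adjusted p = 0.0071, and 0.056 without dark replicate 1). matK fell at 7 h, with 10.59 and 11.39 in dark shoots against 12.06 and 12.14 in light shoots (change -1.11, SE 0.43, adjusted p = 0.043), and its change of -0.85 at 24 h did not pass (SE 0.43, adjusted p = 0.11). The call at 7 h was lost in 3 of 4 fits without 1 array, and the change was -0.70 without dark replicate 1 (adjusted p = 0.32). No rpo or ycf gene was called in dark shoots at either time. rbcL changed by -0.63 at 7 h and -0.59 at 24 h, and psaA, psaB, psaC, psbC, psbD, petA, petD, ndhF, accD and clpP also did not pass at either time. Between the dark shoot groups, 1 gene was higher and 2 were lower at 24 h than at 7 h (6.25%, against 18.4% of all probe sets, with 8.94% higher and 9.46% lower). The higher one was petN, a small cytochrome b6f subunit, with 7.42 and 7.77 at 24 h against 6.52 and 6.80 at 7 h (change 0.94, SE 0.20, adjusted p = 0.0032, and 0.059 without 24 h dark replicate 2).

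Other measured plastid-related genes give a scale for these changes. Of the 9 nuclear photosynthesis genes 2 fell in dark shoots at 7 h and 4 at 24 h. Of all probe sets, 24% and 25.4% were called lower there. The furthest was the antenna gene LHCB4.3 at 24 h, by 5.31 (SE 0.14, adjusted p = 3.7e-15), and the next at that time was RCA, with a change of -1.32 (SE 0.31, adjusted p = 0.0013). Of the 9 genes 3 were lower in submerged than in dark shoots at 7 h, against 7.14% of all probe sets. LHCB4.2 was at -1.08 (SE 0.21, adjusted p = 0.0014). The plastid RNA-binding proteins AT5G42310 and AT2G37220 were the only measured ones of a list of 17 genes for plastid RNA processing. Both fell in dark shoots (by 1.71 and 0.89 at 7 h) and both rose in dark roots (by 0.51 and 1.14 at 7 h). AT5G15700, which codes for a phage-type RNA polymerase of mitochondria and plastids, was the only measured gene of a list of 23 for plastid transcription. It fell in dark shoots by 0.64 at 7 h (SE 0.13, adjusted p = 3e-04) and by 0.69 at 24 h (SE 0.13, adjusted p = 0.00012), and its changes in dark roots and in submerged organs did not pass. It was dim throughout, between 4.41 and 5.33 over all arrays. In roots it stayed at or under 4.72, where a fall could hardly show.

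The test of whether roots and shoots responded differently gave few genes for submergence and more for darkness. For submergence 2 plastid genes differed at 7 h, both lower in roots than in shoots (4.17%, against 7.68% of all probe sets, with 3.82% higher and 3.86% lower), and 1 at 24 h, higher in roots (2.08%, against 6.86%, with 2.98% higher and 3.88% lower). For darkness 11 genes differed at 7 h (22.9%, against 38.8%, with 18.4% higher and 20.5% lower) and 6 at 24 h (12.5%, against 39.6%, with 17.8% higher and 21.8% lower), each with a more positive change in roots. Several of them, ndhD, ndhJ and psbN included, stayed under 6 on each root array, where a fall could hardly show. petB is 1 example at 7 h: it rose in roots by 1.52 while its change of -0.64 in shoots did not pass. Its difference between organs was 2.15 (SE 0.38, adjusted p = 0.00019). Other genes took other forms. ndhI rose by 1.03 in roots, and its change of 0.29 in shoots did not pass. psbN fell in shoots, with a change of -1.30, and its change of 0.76 in roots did not pass. Between the comparisons of darkness in roots and in shoots no arrays are shared.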

How the data were processed

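Arrays of 20 samples were analysed. The deposited values are log2 expression values made by the authors with RMA in the affy package, per the submitters' processing notes, and no version of either is given there. RMA adjusts background, quantile-normalizes and summarizes probes, so that a shift shared by most genes would be removed. Of 22810 probe sets, 64 controls were left out. A GEO platform table named 1 gene for 13513 probe sets, several for 503 and none for 8730 of those tested. Symbols were matched to the plastid genes of RefSeq TAIR10.1.

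limma 3.58.1 in R 4.3.3 (lmFit, eBayes) was fitted to 10 group means over all arrays, with 10 residual and 7.04 prior degrees of freedom, and was tested on simulated data. Two-sided p-values were adjusted by Benjamini and Hochberg over 22746 probe sets within each comparison, with calls under 0.05. Precision is limited by 2 arrays a group, and p-values measure the spread between these replicate experiments. Genes named whatever their values were psaI, matK, psaA to psaC, psbA, psbC, psbD, petA, petB, petD, ndhD, ndhF, ndhJ, rpoA, rpoB, rpoC1, rpoC2, rbcL, accD and clpP. In each comparison the 3 largest called rises and falls without overlap were also named, and up to 3 called genes of each list. Other names were chosen after values were seen. The members and lists were chosen with earlier results of these data known. Of the lists, 9 of 54 nuclear photosynthesis genes, 1 of 23 for plastid transcription, 2 of 17 for plastid RNA processing, 2 of 7 shoot markers and 2 of 9 root markers were measured.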

Additional observations from a re-analysis of the deposited data

Results flagged for a closer look

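For 9 results the response of roots differed from that of shoots by limma's test of the difference (adjusted p under 0.05, Benjamini-Hochberg over all probe sets). Differences are given as root minus shoot.

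For submergence at 7 h, psbA differed by -1.18 (SE 0.30, adjusted p = 0.021): its change was -0.57 in roots and 0.61 in shoots, and neither passed alone. ndhD differed by -1.14 (SE 0.28, adjusted p = 0.018), with changes of -0.48 in roots and 0.66 in shoots. Both genes were dim in roots, where psbA stayed at or under 5.08 and ndhD at or under 4.75. For submergence at 24 h, rpoA differed by 1.39 (SE 0.23, adjusted p = 0.00091), with a rise of 1.07 in roots and a change of -0.32 in shoots.

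For darkness at 7 h, rpoC2 differed by 2.27 (SE 0.52, adjusted p = 0.0019), with changes of 1.41 in roots and -0.86 in shoots. petB differed by 2.15 (SE 0.38, adjusted p = 0.00019). psbN differed by 2.06 (SE 0.53, adjusted p = 0.0045), and its shoot change was -1.30. For darkness at 24 h, psaJ differed by 1.93 (SE 0.43, adjusted p = 0.0015), rpoC2 by 1.51 (SE 0.52, adjusted p = 0.028) and psbN by 1.45 (SE 0.53, adjusted p = 0.038). Left out 1 array at a time, the calls of rpoA at 24 h, of rpoC2, petB and psbN at 7 h of darkness and of psaJ held in every fit. The others, namely psbA, ndhD, and rpoC2 and psbN at 24 h of darkness, were lost in 4 or 5 fits each.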

How the results depend on the processing

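For submergence in either organ, and for darkness in roots at 7 h, fewer of all probe sets were called without 1 array. Leaving out 1 array at a time moved the number of plastid genes called most in roots at 7 h. The counts ranged from 0 to 13 for submergence at 7 h and 1 to 2 at 24 h in roots, and from 0 to 4 at 7 h in shoots, with 0 in all 4 fits at 24 h. For darkness they ranged from 5 to 20 (roots, 7 h), 2 to 4 (roots, 24 h), 3 to 8 (shoots, 7 h) and 4 to 8 (shoots, 24 h). Dark 24 h against 7 h gave 2 to 13 in roots and 2 to 3 in shoots, and roots against shoots in the light 45 to 48. The root minus shoot differences gave 0 to 7 and 1 in each fit for submergence at 7 h and 24 h, and 5 to 17 and 3 to 10 for darkness. With the arrays of 1 tissue only, the counts were 2 and 1 for root submergence at 7 h and 24 h, 0 and 2 for shoot submergence at 7 h and 24 h, and 8 for root darkness at 24 h. With an intensity trend and robust estimation they were 1 and 1 for root submergence at 7 h and 24 h, 2 for shoot submergence at 7 h, 9 for root darkness at 7 h, 4 for shoot darkness at 24 h, 4 for dark roots at 24 h against 7 h, and 6 and 3 for the root minus shoot difference in darkness. Median centring gave 7 for root darkness at 24 h. Without both replicate 2 arrays of roots at 7 h, chosen after seeing the data, no gene was called for root submergence at 7 h. The causes of these moves were not tested.

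Over all probe sets replicate numbers did not pair the samples: deviations of same-numbered arrays correlated between -0.14 and 0.16. Over the 48 plastid genes they correlated between -0.79 and 0.71, and 12 of 45 pairs passed 0.1. Whether the numbers pair some arrays for these genes was not settled. With the replicate block, 4 plastid genes were called for root submergence at 24 h in place of 2, 12 in place of 11 for the root minus shoot difference at 7 h of darkness, and 6 in place of 7 for shoot darkness at 24 h. Of 121 single-gene calls, 67 held in every alternative and none changed direction. Of the 121 calls, 48 were of roots against shoots in the light, and these made up most of the 67. Of the calls for submergence, darkness and their differences between times or organs, most were lost in at least 1 alternative. With 2 arrays a group and 21 genes under a log2 value of 6 on every root array, small changes were not detectable.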

Other observations

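Among the 21 plastid genes outside the rule, rps16, which codes for a ribosomal protein, fell furthest in darkness. It had 4.91 and 5.38 in dark shoots at 7 h and 4.78 and 5.09 at 24 h, against 7.99 and 8.21 in light shoots. The changes were -2.95 (SE 0.32, adjusted p = 3.3e-07) and -3.17 (SE 0.32, adjusted p = 1.1e-07), by limma with Benjamini-Hochberg adjustment, and they held in each alternative. Submerged shoots had 5.55 and 4.22 at 7 h and 4.97 and 5.03 at 24 h. In roots rps16 stayed between 3.45 and 4.43.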
